A study of Mus musculus with 12 samples.

Results

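The 10 genes described here encode enzymes that break down threonine and glycine, run the methionine cycle or lead out of it. They are Tdh and Gcat of the threonine route, Gldc, Amt and Gcsh of the glycine cleavage system, and Mat2a, Mat2b, Ahcy and Mtr of the methionine cycle. Amd1, grouped here with the methionine cycle, leads from it to polyamine synthesis. The genes were taken by symbol from the 52535 gene entries of each count file, and all 10 were present and passed the filter on low counts. The data are RNA-seq counts from the mouse embryonic stem cell line E14. There were 2 libraries from wild-type cells (WT), 2 from clone 1 and 2 from clone 2 of a Bcat1 knockout (labelled KO1 and KO2), each clone being 1 line. The labels do not say how the knockout was made. All were grown with serum, LIF, glutamine, non-essential amino acids and the kinase inhibitor pair called 2i, as the growth protocol in the labels states. The title of the series ties Bcat1, a cytosolic enzyme that transaminates leucine, isoleucine and valine, to self-renewal and Ras signalling. Nothing in the labels ties the replicates to separate cultures. A p-value here therefore reflects the spread among these libraries alone, and that spread may be technical.

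Mouse embryonic stem cells are known for a high activity of threonine dehydrogenase, the mitochondrial enzyme encoded by Tdh. It oxidises threonine, and the ligase encoded by Gcat then splits the product into glycine and acetyl-CoA. The glycine cleavage system takes glycine apart and passes its methylene carbon to folate. In the methionine cycle, methionine is activated to S-adenosylmethionine (SAM), the methyl donor of DNA and histone methylation. The product left after methyl transfer is hydrolysed to homocysteine, which a folate-borne carbon turns back into methionine.

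RNA of 3 of the 10 genes, Tdh, Gcsh and Mat2b, was lower in the libraries labelled knockout than in WT in the test over both clones, beside 2.11% of all genes tested, and 0 were higher, beside 4.25%. The clones differed in 4 genes: Gldc and Gcsh were lower in clone 2 than in clone 1, and Gcat and Ahcy were higher, beside 7.71% of all genes lower and 6.62% higher. Gldc had the largest difference of the 10, with clone 2 at 0.430 of the WT level by the fitted fold. Amt, Mtr, Amd1 and Mat2a passed the test in no comparison.

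Gene counts totalled 11976149 to 13923262 per library, and the levels below are in CPM, the usual unit of reads scaled to a common library size, here with TMM factors. Fold changes are on the log2 scale with the standard error (SE) from edgeR's quasi-likelihood test, and a gene is called where the Benjamini-Hochberg adjusted p over 14946 tested genes was under 0.05. The markers of stem cells fitted the label: all 10 markers, Pou5f1, Sox2 and Nanog among them, were detected. Their summed level was 6768 to 6956 CPM in WT against 6512 to 6633 and 6562 to 6600 in clones 1 and 2. Unlike the other levels, all marker sums were scaled to total gene counts without TMM factors. Markers of other cell types were also present and some moved. Of 9 fibroblast and feeder cell markers, Postn, Dcn, Lum and S100a4 had 0 counts in all 6 libraries. The summed level of the 9 was 2362 to 2492 CPM in WT, 2794 to 3122 in clone 1 and, for clone 2, 2843 to 2954, nearly all of it Fn1. Col1a2, of the same list, had 0 and 1 counts in the WT libraries and 11 to 22 in the knockout libraries, and was called higher over both clones (adjusted p = 0.0120, edgeR). The RNA of Bcat1 did not mark the labels, since it stood at 608 ± 8.35 CPM (SD, n = 2) in WT against 639 ± 31.9 and 581 ± 2.38 in clones 1 and 2. Its log2 fold change between genotypes was 0.01 ± 0.08 (SE; adjusted p = 0.977, edgeR), so the cells are called knockout here only as the labels do. In bulk RNA, fewer cells of a type and less RNA per cell cannot be told apart.

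The sequences that carry the finding for Ahcy are those of the gene and of a near-identical copy, because they decide whether a read can be assigned. Gm4737 is an annotated protein-coding gene on chromosome 16 (chr16:46152985-46155077, GRCm38, minus strand), and 2083 bases of its transcript matched that of Ahcy at 99.7% identity. Over the 1299 coding bases the genes differ at 4 positions, C459T, G474A, C1050T and C1068T, counted from the A of the Ahcy start codon, and the longest stretch without a difference ran for 575 bases. The stretch from coding base 429 to 488 holds 2 of the 4, shown in capitals.
Ahcy: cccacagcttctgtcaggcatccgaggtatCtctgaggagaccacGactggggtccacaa
Gm4737: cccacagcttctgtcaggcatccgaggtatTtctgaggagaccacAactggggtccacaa
For Amd1 the copy is Amd2, on the same chromosome. The 1005 coding bases differ at 1 position only, G796C, and the stretch from coding base 766 to 825 holds it, in capitals.
Amd1: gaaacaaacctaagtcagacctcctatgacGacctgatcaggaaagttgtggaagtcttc
Amd2: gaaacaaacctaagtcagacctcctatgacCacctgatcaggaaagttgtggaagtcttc
Of the other members, Gcat, Gldc, Amt, Mat2b and Mtr had no match in another gene of at least 90% identity over 200 bases. Reads that aligned to several places made up 15.6% to 16.6% of each library and were not counted to any gene.

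By assigned counts, Tdh was the most abundant of the 10 genes per kilobase of exon in WT, at 175 ± 0.523 CPM per kilobase (SD, n = 2). Gcsh followed at 122 ± 9.39, Ahcy at 77.5 ± 3.11, Gcat at 59.9 ± 4.22, Amt at 57.2 ± 3.06, Amd1 at 42.9 ± 4.24, Gldc at 30.5 ± 0.201, Mat2b at 25.2 ± 1.36, Mtr at 12.8 ± 0.683 and Mat2a at 2.61 ± 0.295. Gcat and Amt lay within each other's spread, and every other pair of neighbours in this order was apart by more than the sum of its SDs. Both clones kept Tdh in first place and Mat2a in last place. These places use only the counts assigned to each gene. The copy Gm4737 took 436 and 427 CPM in the WT libraries, against 211 and 224 for Ahcy. The place of Ahcy, also relative to Tdh, is therefore not settled. Mat2a has matches in 3 other genes and an overlapping gene on the opposite strand, so its last place is by assigned counts only. Gldc moved from seventh in WT and clone 1 to ninth in clone 2, at 13.1 ± 0.417 CPM per kilobase. The order in the middle depends on the length used: with the longest transcript in place of all exons, Mat2b stood at 51.2 and Gldc at 49.3 CPM per kilobase.

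**Figure D1:**
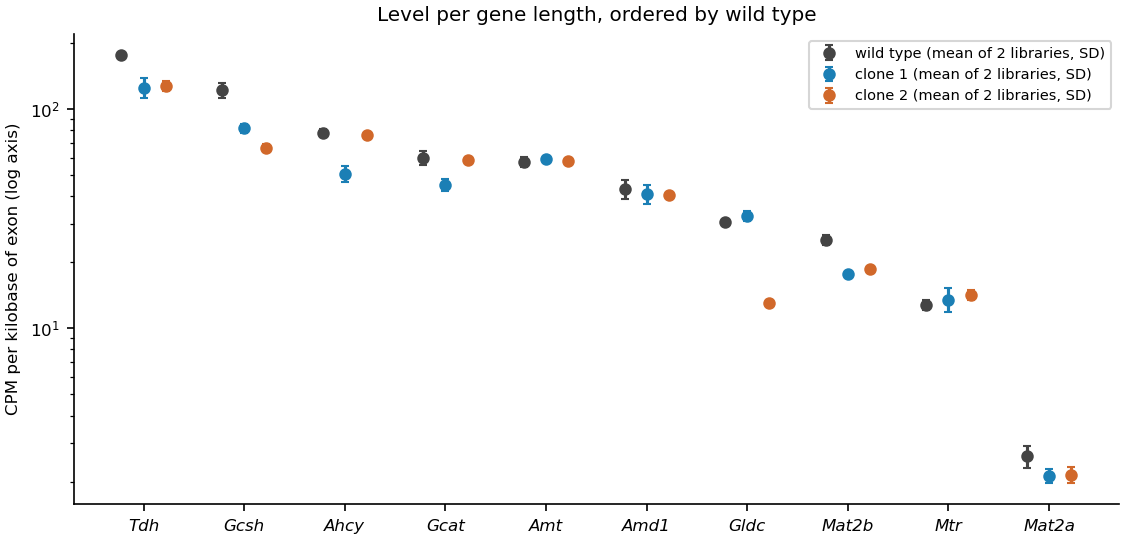
Level of the 10 genes in CPM per kilobase of exon on a log axis, as the mean of 2 libraries with the SD, for WT (grey), clone 1 (blue) and clone 2 (orange), ordered by WT. By assigned counts, Tdh leads at 175 in WT and Mat2a is last at 2.61, and Gldc in clone 2 is the point that leaves its WT place farthest.

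The threonine route was lower at its first enzyme in both clones. Tdh (chr14:63492347-63509092, minus strand) stood at 457 and 459 CPM in the WT libraries, at 304 and 350 in those of clone 1, and at 322 and 346 in those of clone 2. All 4 knockout libraries lay below both WT libraries, and the clones overlapped each other. Over both clones the log2 fold change was -0.47 ± 0.08 (SE; 95% interval -0.66 to -0.29; adjusted p = 0.0108, edgeR), a fall of 27.9%. Against WT, clone 1 fell by 0.49 ± 0.08 (adjusted p = 0.00050, edgeR) and clone 2 by 0.46 ± 0.08 (adjusted p = 0.00100, edgeR) on the log2 scale. The difference between the clones was 0.03 ± 0.08, with an interval of -0.15 to 0.21. The call over both clones was lost without WT replicate 1 (adjusted p = 0.156, edgeR) and without WT replicate 2 (adjusted p = 0.146, edgeR), while the clone contrasts kept theirs. The stem cell marker sum above was lower in every knockout library too. Of its 10 genes, Tbx3 was called lower over both clones, beside 2.11% of all genes. In clone 1, 4 of the 10 were called lower and 1 higher, beside 9.53% and 12.4% of all genes. In clone 2, 2 were called lower, beside 7.81%. Markers of other cell types that were called over both clones were Cdx2 of trophoblast, lower (-2.92 ± 0.40 SE; adjusted p = 0.00355, edgeR), and Kdr of mesoderm (3.0 ± 0.44; adjusted p = 0.00479, edgeR), Nefl of neural cells (1.82 ± 0.27; adjusted p = 0.00563, edgeR) and the fibroblast marker Col1a2, all higher. Other markers on these lists went the other way. Over both clones, 3 of 4 tested neural markers had estimates below 0, as had 1 of 3 of mesoderm, and 1 of 5 of trophoblast lay above 0. T of mesoderm was called lower in clone 2 (-1.02 ± 0.23 SE), as was Nes of neural cells (-0.55 ± 0.13). Ascl2 of trophoblast was called higher in clone 1 (1.68 ± 0.19). Of 5 tested endoderm markers, 0 were called over both clones, beside 4.25% of all genes higher and 2.11% lower. The endoderm list summed to 497 to 517 CPM in WT, 466 to 484 in clone 1 and 633 to 638 in clone 2. Its gene Lama1 was called higher in clone 2 (0.48 ± 0.08 SE) and lower in clone 1 (-0.24 ± 0.08), and Gata4 higher in clone 1 (1.43 ± 0.40). All 4 tested fibroblast markers had estimates above 0 over both clones. The fibroblast sum given above was higher in all 4 knockout libraries. The part of these markers in the level of any member was not tested. A gene on the opposite strand, Gm17232, overlaps Tdh and had 43 to 113 counts per library against 3812 to 6217 for Tdh. Whether the counting used strand is not given in the sources used here, so the RNAs of the 2 genes may not be fully separated.

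Gcat, the ligase that follows Tdh (chr15:79030874-79038353, plus strand), was lower in clone 1 alone. Its level was 136 and 150 CPM in the WT libraries, 102 and 112 in those of clone 1, and 136 and 143 in those of clone 2. Both clone 1 libraries lay below all others, and clone 2 overlapped WT. The log2 fold change was -0.42 ± 0.09 in clone 1 (SE; adjusted p = 0.00252, edgeR) and -0.03 ± 0.09 in clone 2 (interval -0.21 to 0.15). Clone 2 exceeded clone 1 by 0.38 ± 0.09 (adjusted p = 0.00672, edgeR). The fall in clone 1 was not called without WT replicate 2 (adjusted p = 0.0646, edgeR). The difference between the clones was not called without clone 2 replicate 1 (adjusted p = 0.0519, edgeR) or replicate 2 (adjusted p = 0.101, edgeR).

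The glycine cleavage system needs all its proteins at once: Gldc decarboxylates glycine, Gcsh carries the remaining group on a lipoyl arm, and Amt hands the carbon to folate. Its 3 genes had 3 different patterns. Gldc (chr19:30098447-30175429, minus strand) stood at 185 and 187 CPM in the WT libraries, 191 and 206 in those of clone 1, and 81.6 and 78.0 in those of clone 2. Both clone 2 libraries lay far below the other 4, and the clone 1 libraries lay just above WT. Clone 2 fell by 1.22 ± 0.08 on the log2 scale against WT (SE; adjusted p = 3.02e-08, edgeR), a fall of 57.0%. In clone 1 the log2 fold change was 0.10 ± 0.08, with an interval of -0.07 to 0.27. The clones differed by -1.31 ± 0.08 (clone 2 minus clone 1; interval -1.49 to -1.14; adjusted p = 2.88e-08, edgeR). Taken as 1 genotype, with the clone difference in the spread, the change was -0.42 ± 0.36 and was not called (adjusted p = 0.543, edgeR).

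Gcsh (chr8:116981810-116993537, minus strand) was lower in both clones and lowest in clone 2. Its level was 203 and 182 CPM in the WT libraries, 133 and 124 in those of clone 1, and 108 and 102 in those of clone 2. The 3 groups did not overlap. Over both clones the log2 fold change was -0.72 ± 0.11 (SE; interval -0.97 to -0.47; adjusted p = 0.00710, edgeR), the largest fall among the 3 members called there. The call was lost without WT replicate 1 (adjusted p = 0.145, edgeR) or WT replicate 2 (adjusted p = 0.0688, edgeR). Against WT the fall was 0.58 ± 0.09 in clone 1 (adjusted p = 1.30e-04, edgeR) and 0.87 ± 0.09 in clone 2 (adjusted p = 2.12e-06, edgeR). Clone 2 lay 0.29 ± 0.09 below clone 1 (adjusted p = 0.0321, edgeR). That difference was not called by DESeq2 (adjusted p = 0.0525), with only the 4 libraries of the clones (adjusted p = 0.0533, edgeR), or without clone 2 replicate 1 (0.142) or replicate 2 (0.302). Matches to Gcsh in 5 other genes held at most 8 counts per library each, against 1276 to 2627 for Gcsh.

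Amt (chr9:108296853-108302302, plus strand) overlapped across all groups, at 134 and 145 CPM in the WT libraries, 147 and 141 in those of clone 1, and 144 and 138 in those of clone 2. The log2 fold change over both clones was 0.03 ± 0.08 (SE), with an interval of -0.14 to 0.21, so a fall as large as that of Gcsh lies outside it.

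**Figure D2:**
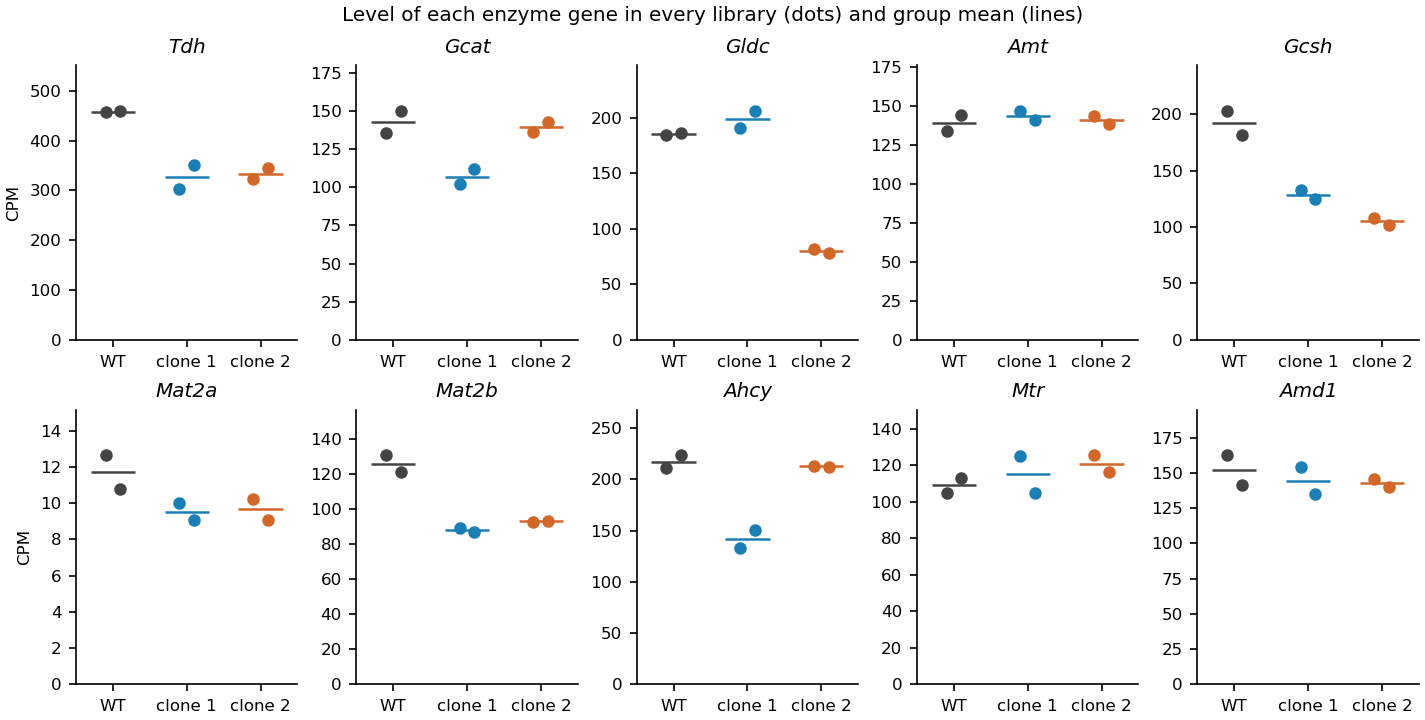
CPM of each of the 10 genes in every library (dots, 2 per group) with the group mean as a line, for WT (grey), clone 1 (blue) and clone 2 (orange), each panel with its own axis from 0. Tdh, Gcsh, Mat2b and Mat2a, the last not called, are lower in all 4 knockout libraries, Gldc only in the clone 2 libraries, and Gcat and Ahcy only in the clone 1 libraries.

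The promoters of Gldc and Gcsh are shown because these are the cleavage system genes whose RNA fell. The RefSeq promoter table (GRCm38.p6) held a window for 9 of the 10 members, with Tdh the exception. Capitals mark a GC box (GGGCGG, or CCGCCC on the other strand) and a CCAAT box (CCAAT, or ATTGG on the other strand). For Gldc the stretch is the 250 bases before the annotated start, at chr19:30175442-30175691 on the minus strand. For Gcsh it is 211 bases outside the transcript, at chr8:116993538-116993748 on the minus strand.
Gldc: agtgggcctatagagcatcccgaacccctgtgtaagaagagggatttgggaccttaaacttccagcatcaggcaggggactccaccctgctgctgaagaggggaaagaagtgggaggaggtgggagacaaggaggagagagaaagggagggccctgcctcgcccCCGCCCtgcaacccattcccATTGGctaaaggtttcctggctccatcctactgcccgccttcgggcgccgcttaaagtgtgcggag
Gcsh: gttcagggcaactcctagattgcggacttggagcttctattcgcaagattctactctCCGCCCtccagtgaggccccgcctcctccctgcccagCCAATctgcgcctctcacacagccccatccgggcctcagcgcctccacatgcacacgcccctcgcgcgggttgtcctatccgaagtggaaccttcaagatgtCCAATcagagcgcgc
Over 250 bases and both strands, the GC box was found in 9 of 9 member windows and in 32.7% of 32851 RefSeq promoters. The CCAAT box was in 7 of 9 windows against 33.8% of promoters. The E-box CACGTG, which Myc and its relatives bind, was in 0 of 9 windows against 6.02% of promoters. The octamer ATGCAAAT was in 0 of 9 against 1.60%, and TGATGNAAN, the pattern of the amino acid response element, in 0 of 9 against 3.44%. TATAAA was in the Mat2a window only, against 12.4% of promoters. These are matches of letters and do not show that a factor is bound or absent.

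In the methionine cycle, Mat2a encodes the catalytic subunit that makes SAM outside the liver and Mat2b its regulatory subunit. Mat2b (chr11:40679314-40695203, minus strand) stood at 131 and 121 CPM in the WT libraries, 89.3 and 86.8 in those of clone 1, and 93.0 and 93.2 in those of clone 2. All 4 knockout libraries lay below both WT libraries. The log2 fold change over both clones was -0.48 ± 0.08 (SE; interval -0.66 to -0.30; adjusted p = 0.00928, edgeR), a fall of 28.2%. It was not called without WT replicate 1 (adjusted p = 0.182, edgeR) or WT replicate 2 (adjusted p = 0.0958, edgeR). The fall against WT was 0.52 ± 0.09 in clone 1 (adjusted p = 3.79e-04, edgeR) and 0.44 ± 0.09 in clone 2 (adjusted p = 0.00181, edgeR). In clone 2 it was not called without WT replicate 1 (adjusted p = 0.0536, edgeR).

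Mat2a (chr6:72432799-72439558, minus strand) was counted at only 115 to 164 reads per library. Its level was 12.7 and 10.8 CPM in the WT libraries, 9.99 and 9.05 in those of clone 1, and 10.2 and 9.09 in those of clone 2. The 4 knockout libraries lay below WT, but the log2 fold change of -0.29 ± 0.17 (SE) had an interval of -0.67 to 0.09 and was not called (adjusted p = 0.344, edgeR). At this count a fall of the size of that of Mat2b lies inside the interval. Mat2a matched 3 other genes at 90% identity or more over at least 200 bases, which held at most 38 counts per library each. Particl, 1 of the 3, overlaps Mat2a on the opposite strand. Reads with several alignments were not counted, and the use of strand is not given. The count may therefore not reflect the level of Mat2a RNA, which was not tested. Of all genes tested, 16.7% had all 4 knockout libraries below both WT libraries, as Tdh, Gcsh, Mat2a and Mat2b did.

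Ahcy hydrolyses S-adenosylhomocysteine, the product that inhibits methyltransferases when it builds up. The gene (chr2:155059310-155074497, minus strand) stood at 211 and 224 CPM in the WT libraries, 133 and 151 in those of clone 1, and 213 and 212 in those of clone 2. Both clone 1 libraries lay below all others. Clone 1 fell by 0.61 ± 0.08 on the log2 scale (SE; adjusted p = 6.30e-05, edgeR), while clone 2 was at -0.03 ± 0.08 with an interval of -0.21 to 0.15. The clones differed by 0.58 ± 0.08 (clone 2 minus clone 1; adjusted p = 1.96e-04, edgeR).

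The copy with the sequence printed above took more counts than Ahcy itself. Gm4737 stood at 436 and 427 CPM in the WT libraries, 300.1 and 280.3 in those of clone 1, and 422 and 405 in those of clone 2, and Ahcy held 30.5% to 34.5% of the counts of the gene and its copies together. Gm4737 changed as Ahcy did, by -0.57 ± 0.08 in clone 1 (SE; adjusted p = 4.55e-05, edgeR) and -0.06 ± 0.08 in clone 2. A further copy, Gm9826, was at 3.89 to 9.88 CPM and was called lower in clone 1. Counted together, Ahcy and Gm4737 fell by 0.59 ± 0.07 in clone 1 (adjusted p = 2.07e-05, edgeR) and were at -0.05 ± 0.07 in clone 2. These counts do not tell which of the copies gave the reads.

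**Figure D3:**
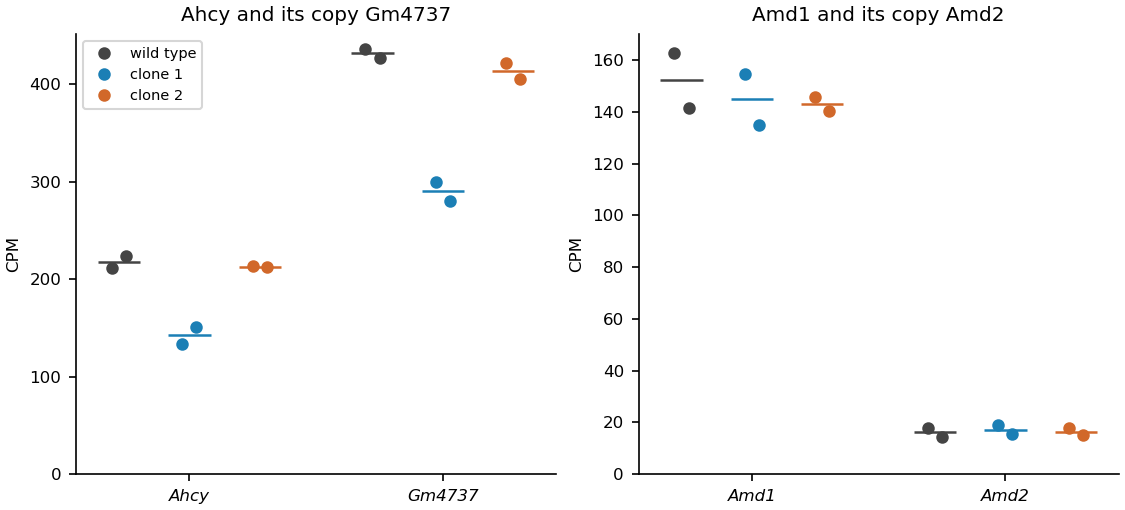
CPM of Ahcy and its copy Gm4737 (left) and of Amd1 and its copy Amd2 (right) in every library (dots) with the group mean (lines), for WT (grey), clone 1 (blue) and clone 2 (orange). Ahcy and Gm4737 are both lower in clone 1, and Gm4737 lies above Ahcy in all 6 libraries.

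Mtr, the cobalamin-dependent enzyme that remethylates homocysteine (chr13:12182712-12258113, minus strand), stood at 105 and 113 CPM in the WT libraries, 125 and 105 in those of clone 1, and 126 and 116 in those of clone 2. Clone 1 overlapped WT, and both clone 2 libraries lay above it. The log2 fold change over both clones was 0.11 ± 0.10 (SE), with an interval of -0.10 to 0.33. Amd1 decarboxylates SAM for polyamine synthesis (chr10:40287458-40302186, minus strand). Its level was 163 and 141 CPM in the WT libraries, 154 and 135 in those of clone 1, and 146 and 140 in those of clone 2. The groups overlapped, and the log2 fold change over both clones was -0.08 ± 0.09 (SE), with an interval of -0.28 to 0.12. Amd1 held 86.4% to 88% of the counts of Amd1 and its copies together, and Amd2 was at 14.5 to 19.1 CPM.

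Across the comparisons, 3 of 10 members were called lower over both clones, where 2.11% of all genes tested were called lower, and 0 were called higher, where 4.25% were. No member was higher at an unadjusted p under 0.05, and DESeq2 also called 3 lower and 0 higher. The mean of both clone contrasts called 6 lower, and the fits without either WT library called 0, with 79 and 99 genes called of all tested in place of 951. In clone 1 against WT, 5 members were called lower and 0 higher, beside 9.53% and 12.4% of all genes. In clone 2 the counts were 4 and 0, beside 7.81% and 10.1%. Between the clones 2 of 10 were called higher in clone 2 and 2 lower, beside 6.62% and 7.71% of all genes. The comparisons with WT share the WT libraries, so their counts are not independent. The median log2 fold change of the members was -0.29 over both clones, -0.36 in clone 1, -0.18 in clone 2 and 0.02 between the clones, and that of all genes was 0.00 over both clones and between the clones and -0.00 in each clone.

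**Figure D4:**
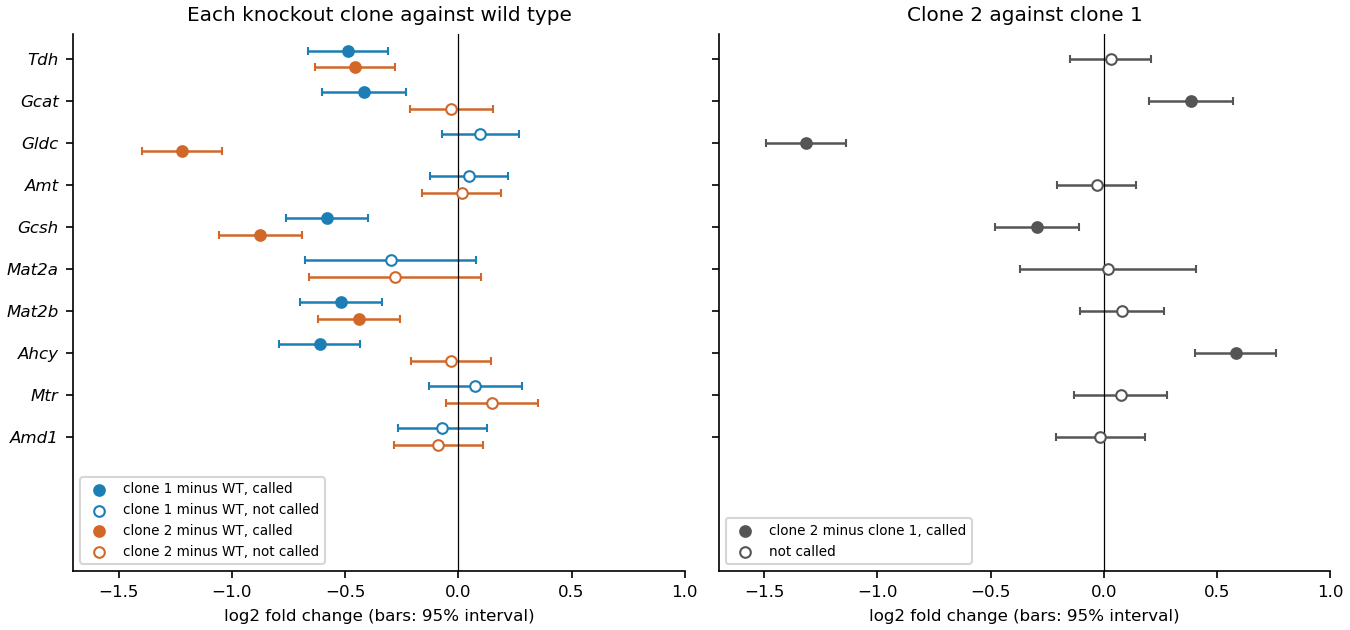
Log2 fold change of each gene with its 95% interval, for clone 1 (blue) and clone 2 (orange) against WT on the left and for clone 2 against clone 1 on the right, with filled points for genes called at an adjusted p under 0.05. Tdh, Gcsh and Mat2b lie below 0 in both clones, and Gldc lies at -1.31 between the clones.

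The other genes of threonine and glycine use were mostly not called. Over both clones, edgeR called 0 of 13 tested genes, beside 4.25% of all genes higher and 2.11% lower. DESeq2 called 0, and 1 gene, Lias, was lower at an unadjusted p under 0.05. Lias makes the lipoyl group that Gcsh carries, and it stood at 63.4 ± 1.62 CPM in WT against 53.1 ± 0.696 and 47.9 ± 1.82 in clones 1 and 2 (SD, n = 2). Its fall was called in clone 2 (-0.40 ± 0.10 SE; adjusted p = 0.00889, edgeR) and not in clone 1 (-0.26 ± 0.10; adjusted p = 0.0730, edgeR). Dld, the dehydrogenase that completes the cleavage system, was at -0.18 ± 0.09 over both clones and was called in no comparison. In clone 1, 1 of the 13 was called higher and 4 lower, beside 12.4% and 9.53% of all genes, while DESeq2 called 0 and 2. In clone 2 edgeR called 0 higher and 1 lower, beside 10.1% and 7.81%, DESeq2 also called 0 and 1, and 2 were higher at an unadjusted p under 0.05. Between the clones 4 were higher in clone 2 and 1 lower by either tool, beside 6.62% and 7.71%.

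Of 15 tested genes of homocysteine remethylation and SAM handling outside the members, Lmbrd1 was the only 1 called over both clones. Of all genes, 4.25% were called higher there and 2.11% lower. Lmbrd1 exports cobalamin, the cofactor of Mtr, from lysosomes. It stood at 8.98 ± 0.15 CPM in WT against 14.2 ± 0.718 and 15.0 ± 2.71 in clones 1 and 2, a rise of 0.70 ± 0.17 on the log2 scale (SE; adjusted p = 0.0440, edgeR). No gene of this list was called lower over both clones by edgeR or DESeq2, and 1 was lower at an unadjusted p under 0.05. Mtrr, the reductase that reactivates Mtr, was lower in clone 1 (-0.35 ± 0.09; adjusted p = 0.0122, edgeR), at 84 ± 1.52 CPM in WT against 65.8 ± 4.85 and 80.7 ± 1.26 in clones 1 and 2. Gnmt, which spends SAM on glycine, was near the limit of detection, at 0.260 ± 0.259 CPM in WT and 1.21 ± 0.137 and 1.40 ± 0.643 in the clones. Across the list, clone 1 had 2 genes called higher and 4 lower, beside 12.4% and 9.53% of all genes, and clone 2 had 2 and 1, beside 10.1% and 7.81%. DESeq2 called 1 and 3 in clone 1 and 1 and 0 in clone 2.

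Transsulfuration turns homocysteine towards cysteine, and its first enzyme, Cbs, was lower in clone 1, as Ahcy was. Cbs stood at 96.2 ± 2.32 CPM in WT against 27.9 ± 2.60 and 84.6 ± 5.07 in clones 1 and 2. The fall in clone 1 was 1.78 ± 0.10 on the log2 scale (SE; adjusted p = 6.03e-09, edgeR), against -0.19 ± 0.10 in clone 2, which was not called. The difference between the clones was 1.60 ± 0.11 (adjusted p = 4.37e-08, edgeR). Over both clones, Cdo1, which oxidises cysteine, rose by 0.73 ± 0.10 (adjusted p = 0.00362, edgeR), and Mpst, a sulfurtransferase, fell by 0.51 ± 0.13 (adjusted p = 0.0461, edgeR). These were the 2 genes of 7 tested that were called there, beside 4.25% of all genes higher and 2.11% lower.

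Among 16 genes of methionine salvage and polyamine metabolism, 1 was called over both clones. Of all genes, 4.25% were called higher there and 2.11% lower. Smox, which oxidises spermine, rose by 0.78 ± 0.15 (SE; adjusted p = 0.0145, edgeR) from 12.3 ± 1.86 CPM in WT to 20.6 ± 0.178 and 21.6 ± 0.846 in the clones. By edgeR and DESeq2 0 genes of the list were called lower over both clones, and 3 were lower at an unadjusted p under 0.05. Enoph1, of the salvage route, was lower in clone 1 (-0.44 ± 0.09; adjusted p = 0.00232, edgeR) and not called in clone 2 (-0.22 ± 0.09; adjusted p = 0.106, edgeR). The median of this list over both clones was -0.14.

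The enzymes that supply serine and folate carbon meet the members at glycine and at Mtr. Of 21 tested genes, 1 was called higher over both clones and 1 lower, beside 4.25% and 2.11% of all genes. Between the clones 7 were higher in clone 2 and 0 lower, by edgeR and by DESeq2, beside 6.62% and 7.71% of all genes, and 3 were lower at an unadjusted p under 0.05. Against WT, clone 1 had 1 called higher and 7 lower, beside 12.4% and 9.53% of all genes, and clone 2 had 4 and 2, beside 10.1% and 7.81%. Psat1 of serine synthesis, 1 of the 7 higher between the clones and chosen after its values were seen, was 0.89 ± 0.08 higher in clone 2 than in clone 1 (SE; adjusted p = 1.14e-06, edgeR). Against WT it was -0.68 ± 0.08 in clone 1 (adjusted p = 1.12e-05, edgeR) and 0.21 ± 0.08 in clone 2, which was not called (adjusted p = 0.0758, edgeR). Of 28 tested genes listed as methyltransferases that use SAM, edgeR called 0 over both clones, beside 4.25% of all genes higher and 2.11% lower. DESeq2 called 1, while 6 passed an unadjusted p under 0.05. Clone 1 had 4 called higher and 5 lower, beside 12.4% and 9.53% of all genes, and clone 2 had 2 and 1, beside 10.1% and 7.81%. The 4 higher in clone 1 are close to the share of all genes, and the counts in clone 2 lie below theirs. Dnmt3l, counted in this list though a cofactor of DNA methylation, was the 1 called lower in clone 2, where Gldc fell. Unlike Gldc, it was also called lower in clone 1 (-0.29 ± 0.08 SE; adjusted p = 0.0178, edgeR). Its level was lowest in clone 2, at 153 ± 1.10 CPM in WT against 126 ± 1.68 and 64.1 ± 0.893 in clones 1 and 2. It was 0.97 ± 0.08 lower in clone 2 than in clone 1 (SE; adjusted p = 9.64e-07, edgeR).

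Neighbours on the chromosome were compared for each member, 7 tested genes on each side. Around Gldc in clone 2, 2 of 14 were called lower and 0 higher, beside 7.81% and 10.1% of all genes, and the median log2 fold change was -0.02. The adjacent gene Uhrf2, a ubiquitin ligase named after its values were seen, was -0.80 ± 0.11 in clone 2 (SE; adjusted p = 4.62e-05, edgeR), -0.33 ± 0.10 in clone 1 (adjusted p = 0.0306, edgeR) and -0.47 ± 0.11 between the clones (adjusted p = 0.00629, edgeR). The other gene called lower, Mlana, also named after its values were seen, was at -1.36 ± 0.38 (adjusted p = 0.0203, edgeR). On the other side of Gldc the nearest 7 genes were not called in clone 2. In 4 cases at least 3 of 14 neighbours were called in the direction of the member's estimate. For Tdh in clone 1, 3 were lower, namely Ints6 (-0.30), Ctsb (-0.27) and the overlapping Gm17232 (-0.78), and 3 were higher, beside 9.53% and 12.4% of all genes. For Mat2b in clone 2, 3 were lower, namely Nudcd2 (-0.30), Ccng1 (-0.29) and Pttg1 (-1.59), and 0 were higher, beside 7.81% and 10.1%. The median of the 14 was -0.02 for Tdh and -0.11 for Mat2b. Amt itself was not called, but of its neighbours 4 were higher and 0 lower in clone 1, beside 12.4% and 9.53% of all genes. Dag1 (0.60), Lamb2 (0.43) and Ccdc36 (1.73) were among the 4. In clone 2, 3 were higher, Dag1 (0.27), Lamb2 (0.41) and Klhdc8b (0.70), and 2 lower, beside 10.1% and 7.81%. The median around Amt was 0.25 in clone 1 and 0.10 in clone 2.

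**Figure D5:**
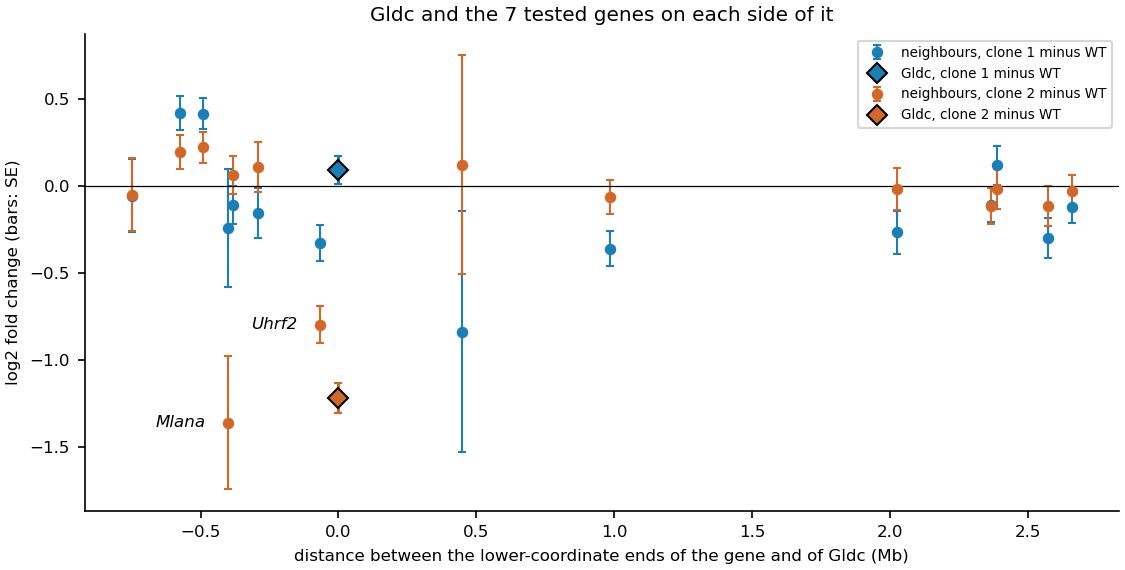
Log2 fold change against WT with its SE for Gldc (diamonds) and the 7 tested genes on each side of it (circles), in clone 1 (blue) and clone 2 (orange), against the distance from Gldc in Mb. Gldc is at -1.22 in clone 2, where Uhrf2 and Mlana are the neighbours called lower, and the clone 2 values to the right of Gldc lie near 0.

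Genes with the pattern most like that of 3 members were sought among 8838 genes by the correlation of log2 CPM over the 6 libraries, as a description. The 6 libraries are 3 pairs of replicates, so a high value mostly reflects the group means. For Tdh they were Agpat2 (Pearson's r of 0.999), Clta (0.998) and Gbx2 (0.996). Gbx2, a transcription factor of naive stem cells, stood at 33.9 and 33.4 CPM in WT, and at 19.2, 23.4, 21.2 and 21.9 CPM in the libraries of clone 1 and then clone 2. For Gldc they were C2cd3 (0.996), Pcbp3 (0.994) and Rnf168 (0.992), and only Pcbp3 had a difference near that of Gldc, with a log2 value of -1.0 between the clones. For Mat2a they were Calm2 (0.993), Ddias (0.989) and Ndc1 (0.988).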

How the data were processed

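RNA of 6 libraries was sequenced after removal of ribosomal RNA, per the labels' protocols. The authors deposited raw gene counts. Tools named in the submitters' processing notes are DESeq2 1.18.1, HISAT2 2.1.0 and HTSeq 0.9.1, with the build mm10 and no roles. The counting's annotation and its strand option were not given in the sources used here. The 5 summary entries were left out. Of all reads they took up 4.14% to 5.35% without a feature, 6.96% to 9.10% ambiguous, 6.00% to 7.30% of low alignment quality, 2.44% to 3.09% unaligned and 15.6% to 16.6% with several alignments. Samples of a further time course were not analysed here.

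Groups were taken from the labels. edgeR 4.0.16 in R 4.3.3 was run on all genes with filterByExpr, TMM factors and the two-sided quasi-likelihood F test, with Benjamini-Hochberg adjusted p called under 0.05. One fit compared genotypes, so that the clone difference entered the spread, though it counts 4 libraries of 2 clones as independent. The other had 3 groups and gave the clone contrasts. The SE is the fold change over the root of F, with 95% intervals from its degrees of freedom. Both designs were tested on simulated data: of genes changed by 0.59 on the log2 scale, 56.1% were recovered between genotypes and 51.5% in each clone contrast. For the genotype fit the simulation gave both clones the same change and no spread between clones. The data have such a spread, so the 56.1% may overstate recovery here. Counting noise alone did not account for the spread within groups: the chi-square per gene was 3.57 for WT, 8.79 for clone 1 and 3.27 for clone 2.

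The members and lists were chosen with earlier results of these data known. Named were all members, up to 6 genes of a list with the smallest p between genotypes, copies, 3 genes most like Tdh, Gldc and Mat2a (mean CPM of at least 10), and at most 3 neighbours where at least 3 of 14 were called in the direction of the member's estimate, whether or not the member was called. Psat1, Uhrf2, Mlana and the cell type markers named lie outside this rule and were chosen after their values were seen. Positions and transcripts came from GENCODE M21 (GRCm38), copies from BLAST+ 2.17.0, and promoters from RefSeq (GRCm38.p6). Alternatives were DESeq2 1.42.0, other size factors and filters, a replicate block, the mean of the clone contrasts, fits of the 4 libraries of 1 contrast, leaving out each library, another gene length, and copies added to Ahcy and Amd1, the last chosen after seeing the data. Figures used matplotlib 3.10.9.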

Additional observations from a re-analysis of the deposited data

Results flagged for a closer look

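The effect of the knockout label differed between the clones in 4 of the 10 genes, by the test of clone 2 against clone 1 with edgeR. On the log2 scale, clone 2 minus clone 1, the difference was -1.31 for Gldc (adjusted p = 2.88e-08), 0.58 for Ahcy (adjusted p = 1.96e-04), 0.38 for Gcat (adjusted p = 0.00672) and -0.29 for Gcsh (adjusted p = 0.0321). Among all genes tested 6.62% were called higher in clone 2 and 7.71% lower. Gcsh was lower than WT in both clones, whereas Gldc was called in clone 2 only and Gcat and Ahcy in clone 1 only. The counts of Ahcy may be shared with those of its copy Gm4737, which differed between the clones by 0.51 (adjusted p = 2.61e-04).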

How the results depend on the processing

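Over all alternatives, 462 fold changes of single members kept their direction and their side of the threshold, 14 were no longer called, 3 became called and 21 changed sign. Counts of genes called and levels per kilobase are not among these. With the mean of both clone contrasts, members called lower over both clones numbered 6, not 3, since Gcat (-0.22; adjusted p = 0.0412, edgeR), Gldc (-0.56; adjusted p = 2.06e-05) and Ahcy (-0.32; adjusted p = 0.00401) were added, and genes called in all numbered 3226, not 951. With no filter on counts the latter was 1752. DESeq2, and the fit of only the 4 libraries compared, left 1 member lower in clone 2 than in clone 1, not 2. With only the 4 libraries, 4065 genes were called in clone 2, not 2674. With 1 library left out, members called lower over both clones ranged from 0 to 3, those between the clones from 1 to 2 in each direction, genes called over both clones from 79 to 948, in clone 1 from 1576 to 4310, in clone 2 from 1165 to 1485 and between the clones from 974 to 3155.

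All values that changed sign were near 0 and not called. Upper-quartile factors gave -0.0145 for Tdh and -0.0242 for Mat2a between the clones. With 1 library left out, the ranges over both clones were -0.0239 to 0.0863 for Amt and -0.178 to 0.0227 for Amd1. In clone 1 they were -0.0105 to 0.0998 for Amt, -0.0595 to 0.197 for Mtr and -0.173 to 0.0287 for Amd1. In clone 2 they were -0.102 to 0.0429 for Gcat, -0.0375 to 0.0725 for Amt, -0.0717 to 0.0112 for Ahcy and -0.185 to 0.0165 for Amd1. Between the clones they were -0.0674 to 0.138 for Tdh, -0.0583 to 0.0015 for Amt, -0.0659 to 0.107 for Mat2a, -0.0474 to 0.21 for Mtr and -0.109 to 0.0868 for Amd1. The cause was not tested.

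With the longest transcript as length, WT levels in CPM per kilobase were 243.6 for Tdh, 49.3 for Gldc, 67.0 for Amt, 133 for Gcsh, 3.46 for Mat2a, 51.2 for Mat2b, 85.5 for Ahcy and 47.5 for Amd1.

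The check made does not settle whether the replicate numbers in the labels pair the libraries. Same-numbered libraries deviated together with a correlation of 0.187 for WT and clone 1, 0.0784 for WT and clone 2 and 0.314 for the clones. All were positive, so a shared replicate effect is possible. With the replicate number as a block, no call of a member changed: 3 were called over both clones, 5 in clone 1, 4 in clone 2 and 4 between the clones. The block gave an adjusted p of 0.0187 for Gcsh over both clones (edgeR), and genes called in all numbered 646 over both clones and 4410 in clone 1.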

Other observations

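The clones can be set side by side along the route from threonine to methyl transfer. In clone 1 the called falls were those of Tdh, Gcat, Gcsh, Mat2b and Ahcy, and in clone 2 those of Tdh, Gldc, Gcsh and Mat2b. Tdh, Gcsh and Mat2b were thus called in each clone, and these contrasts share the WT libraries. Amt, Mtr and Amd1 had 95% intervals that stayed within -0.28 and 0.33 over both clones.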
